A study of Homo sapiens with 30 samples.

Results

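The 8 cadherin genes CDH1, CDH2, CDH3, CDH4, CDH6, CDH10, CDH11, and CDH13 were taken by symbol from an RNA-Seq table of 26228 genes, and all 8 were found in it. The cells were SH-EP, an established human neuroblastoma (NB) cell line of mesenchymal identity, and 4 stable derivatives in which a retrovirus carrying MYCN with its own exogenous promoter was stably introduced. The MYCN was WT, had 1 substitution (the T58A line or the S62A line), or had both (the T58A S62A line, the double mutant). T58 and S62 are phosphorylated residues that govern turnover of the MYCN protein. Each of the 5 lines was grown for 6 hours with DMSO or with 1 μM CYC065, an inhibitor of the cyclin-dependent kinases CDK2 and CDK9, with 3 libraries per group and 30 in all. All 5 lines share the SH-EP background, and each derivative is a single transduced line, so that differences between lines can also be those of line history. Values are FPKM (fragments per kilobase of transcript, relative to the mapped reads of the library), which are corrected for transcript length and can therefore be set side by side between genes.

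Cadherins are calcium-dependent adhesion proteins that bind cadherins of the neighboring cell with their extracellular domains. In the classical cadherins, the cytoplasmic tail binds p120 catenin (CTNND1) and β-catenin (CTNNB1), and α-catenin (CTNNA1) links the complex to actin. CDH1 to CDH4 belong to type I and CDH6, CDH10, and CDH11 to type II. CDH13 (T-cadherin) has cadherin repeats but no cytoplasmic tail and is held in the membrane by a GPI anchor, so that it is not a classical cadherin in the strict sense. Loss of CDH1 with gain of CDH2 is a textbook mark of epithelial-mesenchymal transition (EMT), and neural crest cells, from which NB arises, change their cadherins when they migrate.

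In GRCh37, the build of the files, 4 of the genes lie on chromosome 16. These are CDH11 (64977656 to 65160015, minus strand), CDH3 (68670092 to 68761371, plus strand), CDH1 (68771195 to 68869440, plus strand), and CDH13 (82660570 to 83834245, plus strand). CDH10 (24487209 to 24645087, minus strand) and CDH6 (31193793 to 31329253, plus strand) lie on chromosome 5, CDH2 (25512843 to 25757910, minus strand) on chromosome 18, and CDH4 (59827317 to 60515673, plus strand) on chromosome 20. All 8 are annotated as protein coding. Their spans run from 91.3 kb for CDH3 to 1173.7 kb for CDH13.

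RefSeq promoter windows were at hand for 3 of the 8 genes, CDH2, CDH4, and CDH10. The windows of CDH2 and CDH10 are shown because these genes differed between the lines, and for CDH2 because its 2 RefSeq starts cannot be told apart in a value per gene. Each run is the 250 bases before the RefSeq start site, 5′ to 3′ on the gene's strand, from the GRCh38.p14 table and matched once to GRCh37, whose coordinates are given. Both CDH2 windows lie inside the gene span given above, which is GENCODE's and begins farther upstream, at 25757910 on the minus strand. Capitals mark matches to CACGTG (the E-box bound by MYC-family dimers), CACCTG (the E-box bound by Snail and ZEB factors), TATAAA (the TATA box core), and CCAAT, each searched on both strands.
CDH2, upstream start (chr18:25757095-25757344, minus strand): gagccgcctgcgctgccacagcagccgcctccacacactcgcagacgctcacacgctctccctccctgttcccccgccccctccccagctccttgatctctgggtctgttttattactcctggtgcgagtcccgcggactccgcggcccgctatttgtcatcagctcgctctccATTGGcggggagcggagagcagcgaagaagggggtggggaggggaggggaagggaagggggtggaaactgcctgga
CDH2, downstream start (chr18:25616606-25616855, minus strand): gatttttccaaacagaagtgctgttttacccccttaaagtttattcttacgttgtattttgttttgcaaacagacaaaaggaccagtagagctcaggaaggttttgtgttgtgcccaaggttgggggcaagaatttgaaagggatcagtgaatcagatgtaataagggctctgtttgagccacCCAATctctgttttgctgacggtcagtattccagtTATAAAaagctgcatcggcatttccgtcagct
CDH10 (chr5:24645088-24645337, minus strand): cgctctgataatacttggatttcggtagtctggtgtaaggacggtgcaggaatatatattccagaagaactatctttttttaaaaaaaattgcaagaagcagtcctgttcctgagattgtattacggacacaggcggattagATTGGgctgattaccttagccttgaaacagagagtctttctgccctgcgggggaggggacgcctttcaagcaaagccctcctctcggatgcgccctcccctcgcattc
The CDH2 windows differed in base composition, with 66% G and C at the upstream start and 42% at the downstream start. CCAAT or its complement began 76 bases before the upstream start, 67 bases before the downstream start, and 108 bases before the CDH10 start, and 32% of the 35116 windows in the table hold it. TATAAA began 32 bases before the downstream CDH2 start and is held by 10.7% of all windows. The letters CACGTG, held by 6.34% of all windows, and CACCTG, held by 17.5%, were in none of the 3 windows shown. Of the CDH4 windows, which are not shown since CDH4 was at 0 in nearly all libraries, 1 holds CAGGTG, the complement of CACCTG, 16 bases before its start.

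As a check of the labels, MYCN was listed at 0 in all 6 SH-EP libraries and had group means from 5.72 ± 0.778 FPKM (SD, n = 3, S62A) to 13.5 ± 3.83 (SD, n = 3, T58A S62A) in the MYCN lines with DMSO. FPKM carry no read counts, but the spacing of low values placed the depth of the libraries between 0.299 and 1 relative to the deepest one, with all CYC065 libraries at or below 0.559. Between 40.6% and 45.8% of genes were listed at 0, and 3 of 78 ribosomal protein genes were at 0 in at least 1 library, so that a 0 can be a failed estimate. All 6 SH-EP libraries carry index sequences that were also used for libraries of a MYCN line, so that the pool in which a library was sequenced and the line cannot be told apart. Nothing says that the 3 libraries of a group came from separate cultures, and p-values then measure only the spread between these libraries, which may be technical. A lower value can come from fewer expressing cells or from less RNA per cell, which cannot be told apart in bulk RNA.

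CDH2 and CDH11 made up nearly all of the summed FPKM of the 8 genes in SH-EP, and 5 of the 8 were at or near 0 in most groups. CDH1 (E-cadherin, the epithelial cadherin) was listed at 0 in 29 of the 30 libraries and at 0.0376 FPKM in the other one, a T58A S62A library with CYC065. CDH4 (R-cadherin, of the retina and brain) was above 0 in 1 library, at 0.0442 FPKM in WT with DMSO. CDH6 (K-cadherin, first known from kidney) was above 0 in 1 library, at 0.0337 FPKM in SH-EP with CYC065. CDH3 (P-cadherin, of placenta and basal epithelium) was above 0 in 7 libraries and nowhere above 0.111 FPKM. None of these 4 genes reached the mean of 1 FPKM that a gene needed in order to be tested.

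CDH2 (N-cadherin, the type I cadherin of neural and mesenchymal cells) fell in all 4 MYCN lines. With DMSO, its 3 SH-EP libraries were at 42.9, 44.3, and 41.7 FPKM. The WT libraries were at 11.8, 13.4, and 13.6 FPKM, and the T58A libraries at 18.1, 17.0, and 15.3. The S62A libraries were at 17.5, 18.2, and 17.0 FPKM, and those of T58A S62A at 12.4, 12.3, and 9.30. Every SH-EP library lay above every MYCN library, with 41.7 FPKM as the lowest SH-EP value and 18.2 as the highest MYCN value.

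CDH11 (OB-cadherin, a type II cadherin of osteoblasts and other mesenchymal cells) was the most abundant of the 8 genes in every line with DMSO. Its SH-EP libraries were at 102, 98.7, and 103 FPKM. The WT libraries were at 31.1, 32.7, and 32.9 FPKM and the T58A libraries at 33.4, 33.4, and 31.7, and these overlapped. The S62A libraries were lowest, at 18.2, 20.8, and 20.1 FPKM, and the T58A S62A libraries were at 22.2, 23.2, and 21.4. The 3 levels, SH-EP above WT and T58A above both lines with S62A, did not overlap. How many of all genes form such levels was not counted.

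**Figure D1:**
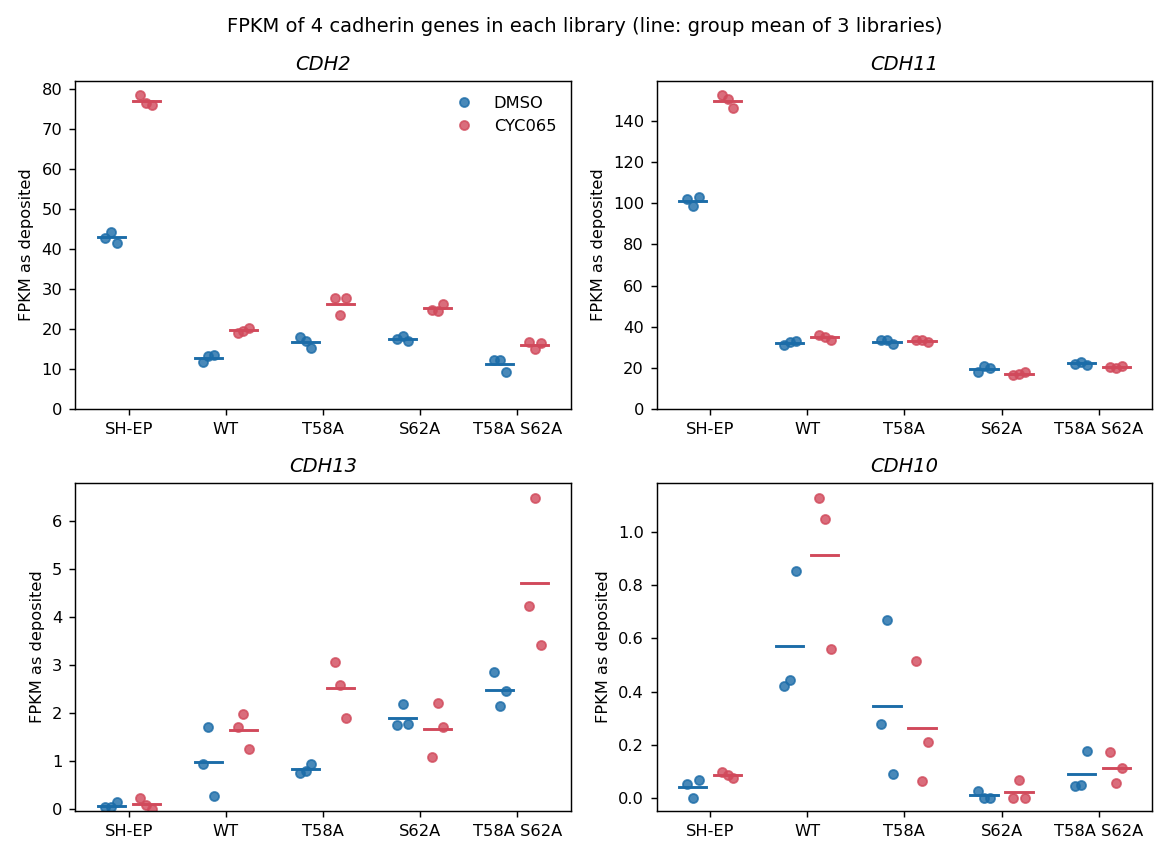
FPKM as deposited (y axis, linear) of CDH2, CDH11, CDH13, and CDH10 in each of the 30 libraries, by line (x axis), with DMSO in blue and CYC065 in red. Points are libraries and horizontal lines are means of 3. CDH2 and CDH11 are highest in SH-EP, CDH13 is near 0 there, and CDH10 is highest in WT.

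CDH13 went the other way, from near 0 in SH-EP to a few FPKM in the MYCN lines. The SH-EP libraries with DMSO were at 0.0223, 0.0226, and 0.143 FPKM. The WT libraries were at 0.923, 1.71, and 0.261 FPKM, a spread that no other line showed. The T58A libraries were at 0.733, 0.783, and 0.933 FPKM, those of S62A at 1.75, 2.18, and 1.76, and those of T58A S62A at 2.85, 2.14, and 2.45. All 12 MYCN libraries lay above the 3 SH-EP libraries. CDH13 reached the mean of 1 FPKM only through the MYCN lines, so that a difference from SH-EP was built into its being tested.

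CDH10 (a type II cadherin of the brain) stayed below the limit of 1 FPKM and was not among the genes tested. With DMSO it was at 0.419, 0.444, and 0.853 FPKM in WT and at 0.277, 0.67, and 0.0873 in T58A. It was at 0.0498, 0, and 0.0653 FPKM in SH-EP, at 0.0252, 0, and 0 in S62A, and at 0.0421, 0.0472, and 0.177 in T58A S62A. The WT libraries lay above all SH-EP, S62A, and T58A S62A libraries, whereas those of T58A overlapped with T58A S62A. The share of all genes with WT set apart in this way was not counted. With CYC065, WT was again highest, at 1.13, 1.05, and 0.56 FPKM, and S62A was at 0, 0.0665, and 0. In a fit of all 19379 genes above 0 in any library, CDH10 was 2.25 higher on the log2 scale in WT than in SH-EP (SE 0.46, limma, adjusted p = 0.000329) and changed by -2.58 from WT to S62A (adjusted p = 0.000318). In that fit, 35.2% and 13.9% of genes passed in these comparisons.

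The first comparison asked how each MYCN line differed from parental SH-EP with DMSO. It used FPKM as deposited and limma on log2(FPKM + 0.1) over 11575 genes, of which CDH2, CDH11, and CDH13 are 3. All changes below are on that scale, and a gene passed when its Benjamini-Hochberg adjusted p was under 0.05. CDH2 fell by 1.73 in WT, 1.35 in T58A, and 1.28 in S62A and fell by 1.93 in the double mutant (SE 0.09 in each, highest adjusted p = 9.90e-12). These are 0.302, 0.392, 0.411, and 0.263 of its SH-EP level. CDH11 fell by 1.65, 1.62, 2.36, and 2.18 in the same order (SE 0.05 in each, highest adjusted p = 1.39e-18), to 0.319, 0.325, 0.195, and 0.220 of its SH-EP level. CDH13 rose by 2.50, 2.57, 3.69, and 4.06 (SE 0.44 in each, highest adjusted p = 3.98e-05), folds that the pseudocount understates at the low SH-EP level.

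Of the 3 cadherins tested, 2 were thus lower in all 4 lines, as were 13.4% of all genes tested, and 1 was higher in all 4, as were 19.2%. The latter was CDH13, for which a difference from SH-EP was built into its being tested. Its call and its place among all genes are therefore no separate evidence. For the count of genes whose 12 MYCN libraries lay wholly on one side of the 3 SH-EP libraries, the background was 16.5% below and 21.8% above. In a single line, 54.2% (WT), 54.2% (T58A), 54.3% (S62A), and 55.3% (T58A S62A) of all genes passed in either direction, and 60.9% did so for the mean over the 4 lines. The 4 comparisons share their SH-EP libraries and are not independent of each other. Averaged over the 4 lines, the change was -1.57 for CDH2 (SE 0.07, adjusted p = 1.43e-15), -1.95 for CDH11 (SE 0.04, adjusted p = 2.08e-22), and 3.21 for CDH13 (SE 0.35, adjusted p = 2.67e-08), with a median of 0.06 over all genes tested. Among the changes of all genes tested, CDH11 stood at percentile 1.84, CDH2 at percentile 3.02, and CDH13 at percentile 99.6.

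ERCC spike-ins, RNAs added by cell number, give a second scale on which a value is meant to refer to the number of cells. On it, the median of all genes moved to -1.18 in WT, -0.89 in T58A, and -1.88 in S62A, with -0.76 in the double mutant. All 3 cadherins kept their directions and calls there, where 67.7% of all genes were lower in all 4 lines and 0.285% higher. For CDH13 the same limit holds, since it was tested only through its level in the MYCN lines. The mean change over the 4 lines was -2.83 for CDH2 (SE 0.16), -3.21 for CDH11 (SE 0.14), and 2.86 for CDH13 (SE 0.40), so that CDH2 and CDH11 stayed below the median gene and CDH13 above it. With DMSO, the log2 spike-in factors ran from 1.62 to 1.73 in SH-EP, from 0.17 to 0.72 in WT, and from 0.26 to 0.96 in T58A. Sequencing pool and line cannot be told apart on this scale either. Whether the shift of the median gene is one of RNA per cell was not tested.

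**Figure D2:**
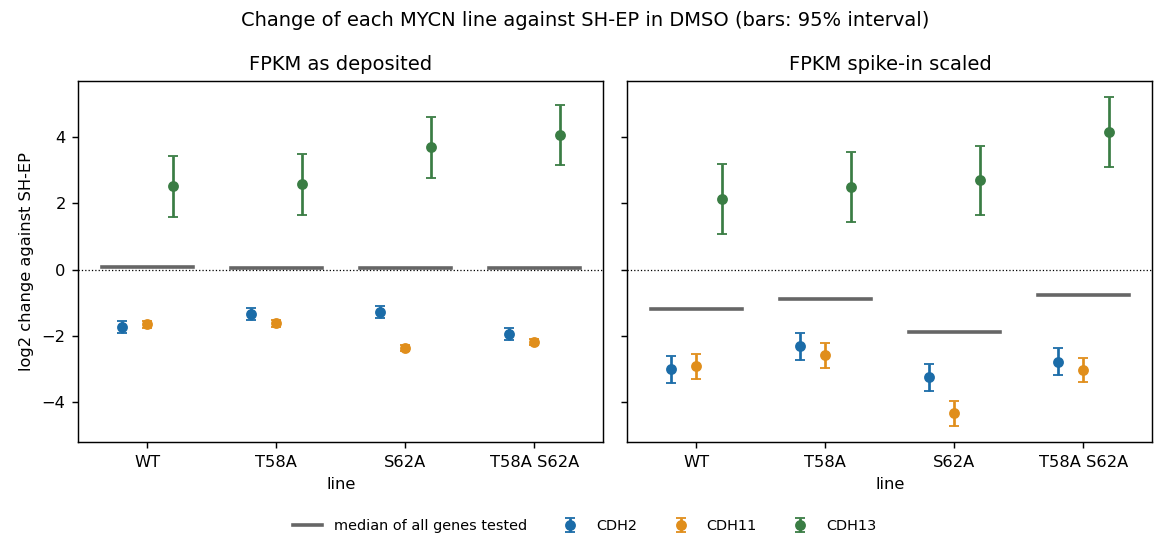
The log2 change of each MYCN line against SH-EP with DMSO (y axis) for CDH2, CDH11, and CDH13, on FPKM as deposited (left) and scaled to spike-ins (right). Points are limma estimates, bars are 95% intervals, and gray lines are medians of the 11575 genes tested. CDH2 and CDH11 lie below the gray line and CDH13 above it in all 4 lines on both scales.

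The second comparison set the 4 MYCN lines against each other with DMSO, in 6 pairs, on FPKM as deposited. On this scale CDH11 was lower in both lines with S62A than in both lines without it. It was lower in S62A than in WT by 0.71 on the log2 scale (SE 0.05, adjusted p = 7.24e-11) and lower in T58A S62A than in WT, at -0.53 (SE 0.05, adjusted p = 8.56e-09). It was 0.74 higher in T58A than in S62A (adjusted p = 1.31e-11) and changed by -0.56 from T58A to T58A S62A (adjusted p = 4.48e-09). WT and T58A did not differ beyond their spread, with a difference of 0.03 (95% interval -0.07 to 0.12, adjusted p = 0.744). The order of CDH11 was thus SH-EP, then T58A and WT without a difference, then T58A S62A, and then S62A. The last step was 0.18 (adjusted p = 0.00549) and no longer passed without S62A library a, at 0.12 (adjusted p = 0.0581). Of all genes tested, 23.6% passed between T58A and WT, 24.1% between S62A and WT, and 23.7% between T58A S62A and WT. The shares were 32.8% between T58A and S62A, 16.7% between T58A S62A and T58A, and 30.7% between T58A S62A and S62A.

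CDH2 had another order. It was higher in T58A than in WT by 0.38 (SE 0.09, adjusted p = 0.00239) and higher in S62A than in WT by 0.44 (adjusted p = 0.000517). T58A S62A was below T58A, at -0.58 (adjusted p = 3.39e-05), and below S62A, at -0.64 (adjusted p = 3.47e-06). T58A and S62A did not differ beyond their spread, with a difference of -0.07 (95% interval -0.25 to 0.11, adjusted p = 0.609), nor did T58A S62A and WT, at -0.20 (95% interval -0.38 to -0.02, adjusted p = 0.105). The latter ranged from -0.0642 (adjusted p = 0.613) without T58A S62A library c to -0.27 without library a, and it passed without library a and without library b (-0.26). Both single mutants thus lay above WT in CDH2 and the double mutant did not.

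For CDH13, T58A S62A was higher than WT by 1.55 (SE 0.44, adjusted p = 0.0120) and higher than T58A by 1.49 (adjusted p = 0.0218). The first of these rests on 1 library, since without WT library c, at 0.261 FPKM, the difference was 0.92 (adjusted p = 0.117). The second no longer passed without any 1 of T58A libraries a and b and T58A S62A libraries a and c, at 1.39 to 1.49. The other 4 pairs of CDH13 did not pass, among them S62A against WT, at 1.19 (adjusted p = 0.0541), and T58A against S62A, at -1.12 (adjusted p = 0.0552). Both of these passed without any 1 of SH-EP DMSO library c, SH-EP CYC065 libraries a and c, and WT DMSO library b, and the latter also without WT DMSO library c. S62A against WT was 1.71 without WT DMSO library b and 0.548 (adjusted p = 0.359) without WT DMSO library c.

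Several of these orders depended on the scale, since the spike-ins place the median gene of S62A lower than that of the other lines, by 0.71 against WT, 0.99 against T58A, and 1.10 against T58A S62A. On the spike-in scale, CDH11 stayed lower in S62A than in WT (-1.41, adjusted p = 3.10e-06), while T58A S62A no longer differed past the threshold from WT (-0.11, adjusted p = 0.629) or from T58A (-0.44, adjusted p = 0.290), so that only the S62A line stayed below WT and T58A. T58A S62A against T58A was also lost for CDH2 (-0.46, adjusted p = 0.331) and CDH13 (1.65, adjusted p = 0.0929), and T58A S62A against S62A was gained for CDH13 (1.45, adjusted p = 0.00979). CDH2 turned in S62A against WT, at -0.25 (adjusted p = 0.245), as did T58A S62A against S62A, at 0.48 (adjusted p = 0.0272). T58A against S62A became 0.94 for CDH2 (adjusted p = 0.000155). On that scale 75.1% of all genes passed between S62A and WT, 88.5% between T58A and S62A, and 90.8% between T58A S62A and S62A, against 8.54% between T58A and WT, 24.3% between T58A S62A and WT, and 2.71% between T58A S62A and T58A.

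The mix of cadherins within a library does not depend on the scale. The 8 genes summed to 144 ± 1.06 FPKM in SH-EP with DMSO (mean ± SD, n = 3) and to 46.7 ± 2.10 in WT, 50.9 ± 2.42 in T58A, and 39.2 ± 1.91 in S62A, with 36.2 ± 2.39 in the double mutant. CDH11 made up 70.2% ± 1.06 of this sum in SH-EP, 69.1% ± 1.24 in WT, 64.6% ± 1.20 in T58A, and 50.2% ± 1.58 in S62A, with 61.6% ± 2.45 in the double mutant (SD, n = 3 each). CDH2 made up 29.8% ± 1.12 in SH-EP and 44.9% ± 1.57 in S62A. The share of CDH13 went from 0.0433% ± 0.0480 in SH-EP to 4.83% ± 0.413 in S62A and 6.88% ± 1.03 in T58A S62A.

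The ratio of CDH11 to CDH2 with DMSO was 2.36 ± 0.123 in SH-EP, 2.50 ± 0.119 in WT, 1.96 ± 0.115 in T58A, and 1.12 ± 0.0724 in S62A, with 1.99 ± 0.270 in the double mutant (SD, n = 3 each). All S62A libraries, with ratios between 1.04 and 1.18, lay below the others with DMSO. With CYC065 the ratio was lower in every line, and in every line the 3 CYC065 libraries lay below the 3 DMSO libraries. It was then 1.94 ± 0.0228 in SH-EP, 1.77 ± 0.116 in WT, 1.27 ± 0.142 in T58A, and 0.684 ± 0.0139 in S62A, with 1.27 ± 0.0546 in the double mutant. These are 0.824, 0.707, 0.648, 0.611, and 0.635 of the DMSO ratios. S62A with CYC065 was the group in which CDH2 exceeded CDH11. The ratio was described and not tested. How many other pairs of genes have ratios that set groups apart in this way was not counted.

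**Figure D3:**
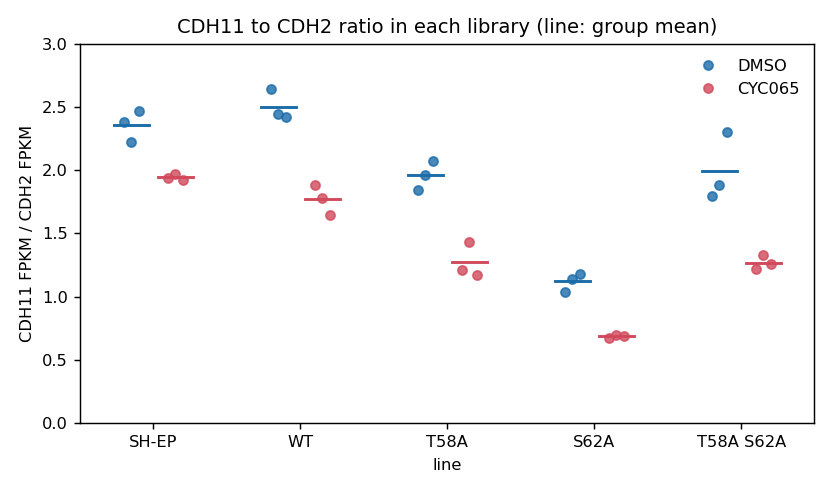
The ratio of CDH11 to CDH2 FPKM (y axis, from 0) in each library by line, with DMSO in blue and CYC065 in red. Points are libraries and lines are group means. In each line the CYC065 points lie below the DMSO points, and S62A is lowest with either treatment.

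The third comparison asked how CYC065 changed the cadherins in each line. CDK9 releases RNA polymerase II into elongation, so that its inhibition can lower most RNAs, and FPKM, which are relative, cannot show this. Spike-in scaled values were therefore used, on which the median gene changed by -1.08 in SH-EP, -1.58 in WT, -1.09 in T58A, and -1.35 in S62A, with -0.98 in the double mutant. CDH2 went from 139, 136, and 138 scaled FPKM in SH-EP with DMSO to 112, 110, and 88.9 with CYC065, without overlap. In WT it went from 19.4, 15.03, and 17.3 to 8.91, 7.04, and 8.55, and in S62A from 14.3, 17.1, and 12.3 to 7.84, 6.38, and 7.81. In T58A it went from 34.8, 20.4, and 29.7 to 20.1, 17.2, and 19.5, and in T58A S62A from 24.9, 22.2, and 14.7 to 14.9, 10.5, and 16.1. The treatments overlapped in T58A S62A and in no other line. The share of all genes without overlap between treatments was not counted, so that this is a description only.

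CDH2 fell in WT (-1.07, SE 0.20, adjusted p = 1.68e-05), T58A (-0.55, adjusted p = 0.0140), S62A (-0.97, adjusted p = 7.50e-05), and T58A S62A (-0.56, adjusted p = 0.0139). In SH-EP its change of -0.42 (95% interval -0.83 to -0.01, adjusted p = 0.0574) did not pass. The T58A call was lost without T58A DMSO library a (-0.38) or CYC065 library b (-0.48), and with the 21 spike-ins of at least 50 FPKM (-0.38, adjusted p = 0.204). The T58A S62A call was lost without its DMSO library a (-0.40) or b (-0.49) or its CYC065 library b (-0.37). In SH-EP the change passed when T58A DMSO library a or b, T58A S62A DMSO library c, or T58A S62A CYC065 library b was left out, which alters only the shared estimate of the spread.

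CDH11 fell in all 5 lines. It went from 332, 304, and 341 scaled FPKM to 217, 216, and 171 in SH-EP, a change of -0.70 (SE 0.18, adjusted p = 0.00117). In WT it went from 51.3, 36.8, and 42.0 to 16.8, 12.5, and 14.1, a change of -1.57 (adjusted p = 9.90e-09). In S62A it went from 14.9, 19.4, and 14.5 to 5.24, 4.44, and 5.37, a change of -1.67 (adjusted p = 4.50e-09). The change was -1.18 in T58A (adjusted p = 2.02e-06) and -1.20 in the double mutant (adjusted p = 1.60e-06). In none of the 5 lines did the CDH11 libraries of both treatments overlap on this scale, for which no share over all genes was counted either. CDH13 fell in S62A, from 1.43, 2.05, and 1.27 to 0.338, 0.568, and 0.500 scaled FPKM (-1.56, SE 0.51, adjusted p = 0.00609), and did not pass in the other 4 lines, with changes from -0.56 to 0.37. Without WT DMSO library c, the change in WT was -1.24 and passed (adjusted p = 0.0190).

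Of the 3 cadherins, 2 were lower with CYC065 in all 4 MYCN lines on this scale, as were 74.1% of all genes tested, while 0.536% were higher in all 4. In either direction, 77.2% of all genes passed in SH-EP, 94.5% in WT, 85.8% in T58A, and 91.2% in S62A, with 78.3% in the double mutant. A fall was therefore the background, and the position against the median gene says more. CDH2 lay above the median gene by 0.65 in SH-EP, 0.51 in WT, 0.54 in T58A, and 0.38 in S62A, with 0.42 in the double mutant. CDH11 lay 0.38 above it in SH-EP, at 0.00 in WT, and below it in T58A (-0.08), S62A (-0.32), and T58A S62A (-0.23). On FPKM as deposited, the direction turned for CDH2, which rose in all 5 lines by 0.84, 0.61, 0.65, 0.52, and 0.52 (highest adjusted p = 9.69e-06). The summed FPKM of all genes rose too, from between 415637 and 496771 with DMSO to between 667866 and 761639 with CYC065. The median gene as deposited changed by 0.15 in SH-EP and by 0.06 to 0.07 in the MYCN lines. A rise as deposited need therefore not be a rise of a gene's share in the summed FPKM. CDH13 as deposited rose in T58A (1.49, adjusted p = 0.00458), and its fall in S62A no longer passed (-0.23, adjusted p = 0.651). CDH11 as deposited rose in SH-EP (0.56, adjusted p = 1.24e-10) and WT (0.11, adjusted p = 0.0387), fell in S62A (-0.18, adjusted p = 0.00139) and T58A S62A (-0.12, adjusted p = 0.0248), and was at 0.02 in T58A (adjusted p = 0.714). On that scale 29.6% of all genes were higher and 26.6% lower in all 4 MYCN lines, and 76.3% passed in SH-EP, 71.2% in WT, 71.4% in T58A, and 73.4% in S62A, with 72.8% in the double mutant.

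**Figure D4:**
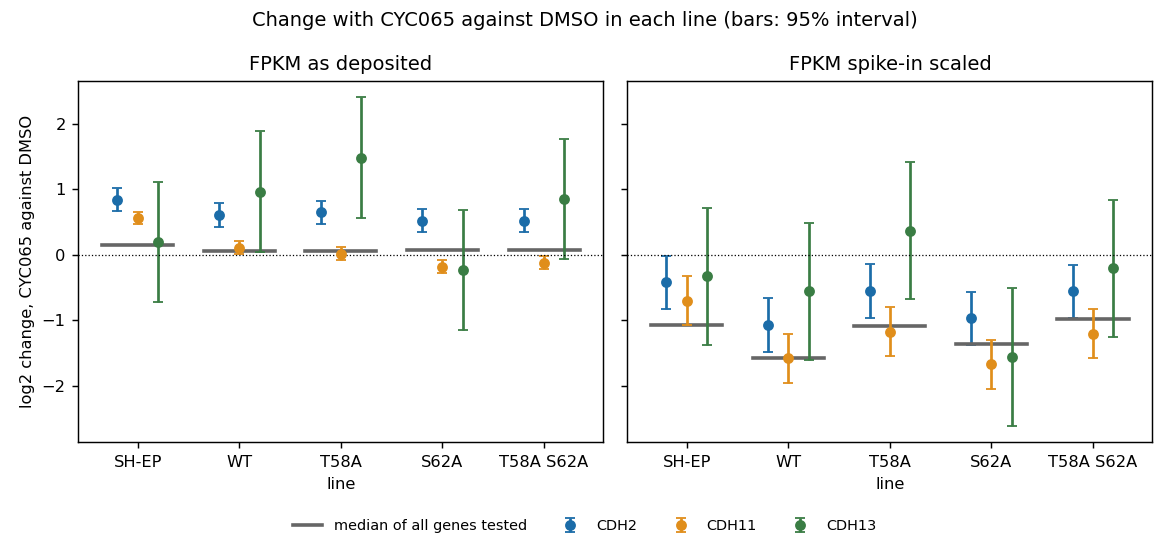
The log2 change with CYC065 against DMSO (y axis) for CDH2, CDH11, and CDH13 in each of the 5 lines, on FPKM as deposited (left) and scaled to spike-ins (right). Points are limma estimates, bars are 95% intervals, and gray lines are medians of all genes tested. CDH2 is above 0 in all 5 lines on the left and below 0 in all 5 on the right, and above the median gene on both sides.

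Whether the CYC065 change of a MYCN line differed from that of SH-EP was tested as an interaction on the spike-in scale. The fall of CDH11 was larger than in SH-EP by 0.88 in WT (-0.88, SE 0.26, adjusted p = 0.0372) and by 0.97 in S62A (-0.97, SE 0.26, adjusted p = 0.0262). It did not pass in T58A, at -0.48 (adjusted p = 0.499), or in the double mutant, at -0.50 (adjusted p = 0.391). Of all genes, 16% passed in WT, 2.66% in T58A, and 4.83% in S62A, with 5.46% in the double mutant. The median gene itself moved by -0.51 in WT, -0.01 in T58A, and -0.28 in S62A, with 0.08 in the double mutant. Against it, CDH11 lay at -0.36, -0.47, -0.69, and -0.59 in the same order. The calls did not follow this distance, which was smallest in WT. Over the 4 lines the interaction of CDH11 was -0.71 (SE 0.20, adjusted p = 0.0358), with a median of -0.19 over all genes and a background of 6.02% of genes past the threshold in either direction. This mean no longer passed without any 1 of SH-EP DMSO libraries a, b, and c and SH-EP CYC065 libraries a and b, at -0.65 to -0.74. The WT call was lost in 8 and the S62A call in 6 of the 30 fits that left out 1 library. The libraries concerned were SH-EP DMSO a and b and SH-EP CYC065 a and b for both calls. For WT they were also SH-EP DMSO c, WT DMSO a, and WT CYC065 b and c, and for S62A also its DMSO library b and its CYC065 library b. With the 21 spike-ins of at least 50 FPKM, the mean was -0.85 and did not pass (adjusted p = 0.137), and neither did WT (-0.98, adjusted p = 0.147) or S62A (-1.32, adjusted p = 0.0596).

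On FPKM as deposited, the interaction of CDH11 passed in all 4 lines, at -0.45 in WT, -0.54 in T58A, and -0.75 in S62A, with -0.69 in the double mutant (highest adjusted p = 2.84e-05), as did 4.79% of all genes in this direction. The interaction did not pass for CDH2 in any line, at -0.65 in WT, -0.13 in T58A, and -0.55 in S62A, with -0.14 in the double mutant (lowest adjusted p = 0.0890), except for WT without T58A DMSO library b (adjusted p = 0.0487). It did not pass for CDH13 in any line either (lowest adjusted p = 0.339).

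The genes whose log2 level followed each cadherin most closely over the 15 DMSO libraries were found by Pearson's r, as a description. For CDH11 these were SPARC (r = 0.996), which encodes a secreted matrix protein, and TMEM200A (r = 0.993). SPARC fell from a mean of 478 FPKM in SH-EP to 99.1 in WT, 100.4 in T58A, and 55.4 in S62A, with 65.4 in the double mutant, the same order as CDH11. Over the 12 libraries of the MYCN lines alone, r with SPARC was 0.974. For CDH2 they were LTBP1 (r = 0.984), which encodes a protein that stores latent TGF-β in the matrix, and KIFAP3 (r = 0.975), a subunit of a kinesin motor. For CDH13 they were FAM101B (r = 0.943) and TYMS (r = 0.941), the thymidylate synthase gene. CDH2 and CDH11 themselves were correlated at r = 0.866 over the 15 libraries and at r = 0.0131 over the 12 of the MYCN lines, so that the first value rests on the gap between SH-EP and the rest. The points share their lines, and libraries of a line are not independent.

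Among 11 other classical cadherins, 3 could be tested. All 3 differed in the mean over the 4 lines on FPKM as deposited, as did 60.9% of all genes tested. CDH9, a type II cadherin, fell by 3.61 (SE 0.31, adjusted p = 5.15e-10), from 6.88 ± 0.353 FPKM in SH-EP to at most 0.956 ± 0.200 in a MYCN line. CDH19, known from Schwann cell precursors, rose by 2.16 (SE 0.28, adjusted p = 3.83e-07), and it did so unevenly, with 0.380 ± 0.209 FPKM in WT, 1.65 ± 0.0832 in T58A, and 0.0831 ± 0.0445 in S62A, with 2.22 ± 0.282 in the double mutant against 0.0682 ± 0.00151 in SH-EP. CDH9 reached the mean of 1 FPKM only through SH-EP and CDH19 only through T58A and T58A S62A, so that a difference between lines was built into their being tested. CDH24 rose by 0.60 (SE 0.08, adjusted p = 9.78e-07) and was lower on the spike-in scale (-0.65). Of 25 other members of the cadherin superfamily, 10 were tested, of which 9 fell and 1 rose, with a median of -0.94 against 0.06 for all genes. The 60.9% of all genes that passed for this mean is the share for both directions together. Among the superfamily genes, the changes furthest below 0 follow. The largest falls were those of PCDH18 (-2.66, SE 0.15), PCDH20 (-2.23, SE 0.09), and CLSTN3 (-2.13, SE 0.09). None of the 7 desmosomal cadherins reached 1 FPKM.

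Of the 12 catenins and actin linkers, 8 were tested, of which 3 rose and 4 fell, with a median of -0.11. As deposited, 60.9% of all genes passed for this mean in either direction. CTNNA1 was at -0.02 (adjusted p = 0.549), CTNNB1 rose by 0.12 (adjusted p = 0.0126), and CTNND1 fell by 0.20 (adjusted p = 0.000373). The largest changes were those of PKP4 (1.03, SE 0.05), a p120-family armadillo protein, JUP (-0.68, SE 0.10), which is plakoglobin, and LIMA1 (-0.65, SE 0.04), an actin-binding protein. On the spike-in scale, 92.4% of all genes passed for this mean, 91.4% fell, and the median gene was at -1.18. There 7 of the 8 catenins and linkers fell and none rose, with CTNNA1 at -1.28, CTNNB1 at -1.14, and PKP4 at -0.22 (adjusted p = 0.138). Nectins, adhesion proteins of the same junctions, numbered 5, of which 2 rose and 1 fell as deposited, where 60.9% of all genes passed. PVRL3 (nectin-3) changed by -1.04 (SE 0.08), PVRL1 (nectin-1) by 0.53 (SE 0.14), and PVR by 0.27 (SE 0.07), and on the spike-in scale PVRL1 (-0.71) and PVR (-0.99) were lower.

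Of 8 transcription factors of EMT, 5 fell and 2 rose, with a median of -0.47, where 60.9% of all genes passed for this mean. SNAI2 (Slug, a repressor of CDH1) fell by 1.26 (SE 0.10, adjusted p = 4.91e-11), from 21.3 ± 0.779 FPKM in SH-EP to 6.11 ± 1.27 in T58A S62A. ZEB1 fell by 0.64 (adjusted p = 2.16e-06) and ZEB2 by 0.52 (adjusted p = 0.000271). TWIST1 rose by 0.28 (SE 0.10, adjusted p = 0.0197) and TCF3 by 0.60 (SE 0.07, adjusted p = 2.00e-07). CDH1 stayed at 0 in the same libraries. On the spike-in scale all 8 factors fell, as did 91.4% of all genes. Of 10 genes for cadherin processing (cleavage or turnover), 5 fell, 1 rose, and 4 did not pass. The largest changes were in subunits of γ-secretase, APH1B (-1.77, SE 0.15), NCSTN (-1.50, SE 0.04), and APH1A (-0.41, SE 0.05).

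With CYC065, on the spike-in scale and as the mean over the 4 MYCN lines, all 8 catenins and linkers fell, with a median of -1.04 against -1.24 for all genes. Those furthest from 0 were PKP4 (-2.09), MLLT4 (afadin, -1.66), and CTNND1 (-1.46), while CTNNA1 was at -0.64 and CTNNB1 at -0.83. All 8 EMT factors fell, with TWIST1 at -3.37 (SE 0.12), TWIST2 at -2.32 (SE 0.14), ZEB1 at -1.85 (SE 0.10), ZEB2 at -1.55, and SNAI2 at -1.10. Of the nectins, 4 fell and PVRL4 (nectin-4) rose by 2.68 (SE 0.23, adjusted p = 1.60e-11), while PVRL1 (-1.54) and PVRL2 (-1.35) fell. PVRL4 averaged only 1.93 FPKM over all libraries and was above 0 in 28 of them. A rise with CYC065 may therefore have been built into its being tested. All 10 genes for cadherin processing fell, with APH1B at -1.62 and PSEN2 at -1.40. CDH9 (-0.80), CDH19 (-0.59), and CDH24 (-0.44) fell, and in the rest of the superfamily PCDH18 was at -3.13, FAT4 at -1.87, and PCDH10 at -1.81. A fall was the background here too, at 94.1% of all genes for this mean, with 95.8% past the threshold in either direction. On FPKM as deposited, 5 of the 8 catenins and linkers rose, among them CTNNA1 (0.73) and CTNNB1 (0.54), whereas TWIST1 (-2.03), TWIST2 (-0.98), ZEB1 (-0.54), and PCDH18 (-1.89) fell on that scale as well.

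**Figure D5:**
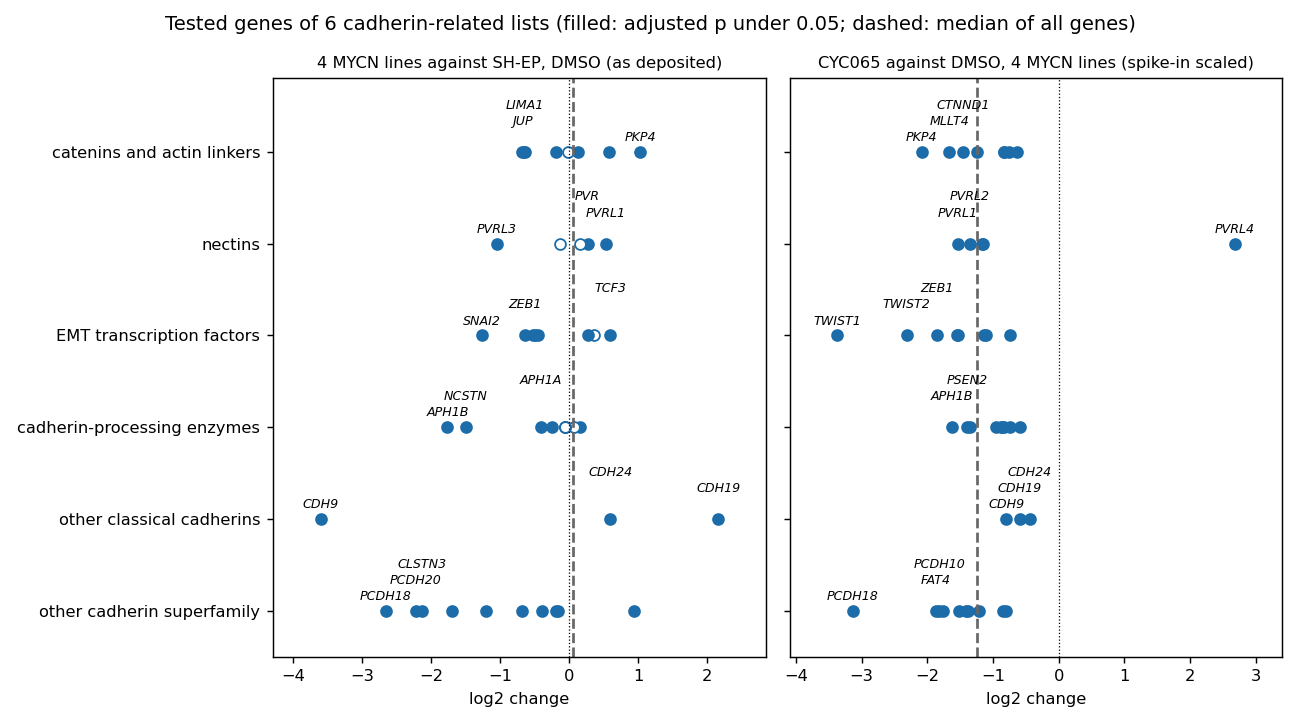
The log2 change (x axis) of each tested gene in 6 cadherin-related lists, as the mean over the 4 MYCN lines against SH-EP with DMSO (left, FPKM as deposited) and with CYC065 against DMSO (right, spike-in scaled). Filled points passed the threshold, dashed lines are medians of all genes tested, and genes among the 3 furthest from 0 are named in each list. Of the 10 genes for cadherin processing, 9 are plotted. PCDH18 is far to the left in both panels, and PVRL4 is the point to the right of 0 in the right panel.

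The labelled identity was checked with marker lists, on FPKM as deposited. For the mean over the 4 lines, 60.9% of all genes tested passed in either direction on this scale. Of 9 mesenchymal markers, 8 were tested and all 8 fell in the mean over the 4 lines, with the summed level going from 6738 to 6993 FPKM in the SH-EP libraries to between 3044 and 4074 in those of the MYCN lines. Of these, FN1 (fibronectin) fell by 3.03 (SE 0.04) and VIM (vimentin) by 0.72 (SE 0.03), and VIM was still at 1335 FPKM or more in every group mean with DMSO. The part of this list in the fall of CDH2 and CDH11 was not tested. Of 10 epithelial markers, 4 were tested and 1 rose and 2 fell. KRT8 was at 206 to 408 FPKM in the group means with DMSO, while EPCAM, a defining epithelial gene, was at 0.155 or less, as CDH1 was at 0. Of 12 adrenergic neuroblast markers, 4 were tested, HAND2, GATA2, GATA3, and CHGB, with means over all libraries of 49.8, 14.8, 5.91, and 1.42 FPKM, and 2 rose and 2 fell. The list summed to between 76.4 FPKM (S62A) and 112 FPKM (T58A) in the DMSO group means, while PHOX2A was at 0 in every DMSO group and DBH at 0.00999 FPKM or less. None of 5 endothelial markers and 1 of 5 Schwann cell markers reached 1 FPKM.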

How the data were processed

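RNA-Seq of 30 libraries (5 lines, DMSO or CYC065, 3 each) was analysed. RNA was poly(A)-selected for stranded libraries, with ERCC spike-ins in proportion to the cells counted. The authors aligned reads to hg19 with HISAT2 and deposited FPKM from Cufflinks, which were not scaled to spike-ins. The annotation is not given in the sources used here. Column endings do not match the labelled replicate numbers, so that libraries are named a to c by ending. Of the columns, 0 belonged to other samples.

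The 11575 genes averaging at least 1 FPKM entered limma 3.58.1 under R 4.3.3 (lmFit, eBayes with trend) as log2(FPKM + 0.1), in 1 fit of 10 groups, two-sided, with Benjamini-Hochberg adjustment over all of them. The deposited FPKM served for lines and pairs. For CYC065 and interactions, each library was scaled to the median of the 55 spike-ins that averaged at least 1 FPKM. No counting interval can be had without counts. The fit was tested on simulated data.

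Named genes are the 8 members, the 3 tested genes of each list with the largest mean change, CTNNA1, CTNNB1, CTNND1, SNAI2, ZEB1, ZEB2, TWIST1, MYCN, and the 2 genes most correlated with each member of at least 1 FPKM. CDH10 in the fit without a filter, the epithelial and neuroblast genes, FN1, and VIM were named after their values were seen. A few genes that this rule or the marker lists would name are not reported here, but remain in the counts. Members and lists were chosen with earlier results of these data known. Positions are GENCODE's on GRCh37, and promoter windows are RefSeq's. Alternatives were pseudocounts of 1 and 0.01, no filter, a filter at 5 FPKM, the other scaling, median-centered libraries, fits of only the groups compared, 21 spike-ins of at least 50 FPKM, each library left out, and a block by column ending, the last chosen after seeing the data.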

Additional observations from a re-analysis of the deposited data

Results flagged for a closer look

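The interaction of line and CYC065 passed the threshold for CDH11 on the spike-in scale in WT (-0.88 in log2), in S62A (-0.97), and as the mean over the 4 MYCN lines (-0.71). These values are listed because a tested difference between a MYCN line and SH-EP in the same contrast passed. The median gene moved by -0.51 in WT, by -0.28 in S62A, and by -0.19 in the mean. All 4 lines share the SH-EP libraries. When each of the 30 libraries was left out in turn, the call was lost in 8 fits for WT, 6 for S62A, and 5 for the mean.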

How the results depend on the processing

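The 15 line results of CDH2, CDH11, and CDH13 kept their direction and call in every alternative run, except that CDH13 has no value with the filter at 5 FPKM. For CDH13 this is no separate evidence, since a difference from SH-EP was built into its being tested. Without a library, the pair T58A against S62A ranged from -0.12 to 0.000705 for CDH2 and T58A against WT from -0.57 to 0.59 for CDH13. With CYC065, CDH13 ranged from -0.81 to 0.25 in SH-EP and from -0.66 to -0.38 as the mean over the 4 MYCN lines. The interaction ranged from -0.34 to 0.0390 (T58A) and -0.36 to 0.0474 (T58A S62A) for CDH2, from -0.82 to -0.65 (mean) for CDH11, and from -0.91 to 0.26 (WT), -0.46 to 0.61 (T58A S62A), and -0.74 to 0.33 (mean) for CDH13.

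With the other scaling, pairs of CDH2 were -0.25 (S62A against WT), 0.23 (T58A S62A against WT), 0.94 (T58A against S62A), and 0.48 (T58A S62A against S62A). With CYC065, CDH2 was at 0.84, 0.61, 0.65, 0.52, and 0.52 in the 5 lines (mean of 4, 0.58), CDH11 at 0.56 in SH-EP, 0.11 in WT, and 0.0205 in T58A (mean -0.0427), and CDH13 at 0.20 in SH-EP, 0.97 in WT, and 0.85 in T58A S62A (mean 0.77), while its T58A call was gained (1.49) and its S62A call lost (-0.23). The interaction was -0.27 for CDH2 (mean, past the threshold) and 0.77 (WT) and 0.57 (mean) for CDH13. With libraries centered on their median, CDH2 was at 0.98, 0.79, 0.83, 0.69, and 0.68 (mean 0.75), CDH11 at 0.70 in SH-EP, 0.29 in WT, 0.21 in T58A, and 0.0332 in T58A S62A (mean 0.13), CDH13 at 0.34 in SH-EP, 1.14 in WT, and 1.01 in T58A S62A (mean 0.94), and the interaction of CDH13 at 0.81 (WT) and 0.60 (mean). Both settings take the change common to all genes out of the CYC065 values by construction.

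A pseudocount of 1 gave -0.0451 for CDH13 in T58A against WT, -0.0926 for its interaction in T58A S62A, and -0.27 for its mean CYC065 change (adjusted p = 0.0287). A pseudocount of 0.01 gave 0.44 (WT) and 0.49 (mean) for its interaction. Fitting only the groups compared gave -0.49 for its mean CYC065 change (adjusted p = 0.0284), and lost the pairs T58A against WT and T58A S62A against T58A for CDH2, T58A S62A against S62A for CDH11, and T58A S62A against WT for CDH13, as well as the CYC065 change of CDH2 in T58A and T58A S62A. Spike-ins of at least 50 FPKM ended the CYC065 call of CDH2 in T58A and the WT and S62A interaction calls of CDH11, and gave -0.85 for the mean interaction of CDH11 (adjusted p = 0.137) and -0.12 for that of CDH13 in T58A S62A. Other causes were not tested.

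The count of genes past the threshold was 7047 for the mean of the lines (10701 with the other scaling), 6553 for at least 1 pair (10877), 11088 for CYC065, and 697 for the interaction. The interaction count was 1131 with a pseudocount of 1, 1107 with no filter, 390 at 5 FPKM, 3854 with the other scaling, 3512 with centered libraries, 246 with spike-ins of at least 50 FPKM, and 426 to 1290 without a library (426, 448, and 433 without SH-EP DMSO library a, b, or c and 1290 without T58A DMSO library b).

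The labelled replicate numbers could not be tied to columns, so that only the column endings could form a replicate block. Deviations of libraries correlated at a mean of 0.0033 with the same ending and -0.0017 with another, and 13 of 30 libraries were closest to their own ending, so that the endings were not taken as pairs. With this block the counts were 7039, 6497, 11104, and 871, no cadherin call was lost, and 3 were gained, CDH13 in S62A against WT (adjusted p = 0.0486) and T58A against S62A (adjusted p = 0.0492) and CDH2 with CYC065 in SH-EP (adjusted p = 0.0377). FPKM carry no counts, which limits what can be said of CDH1, CDH3, CDH4, CDH6, and CDH10.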
